A study of Homo sapiens with 9 samples.

Results

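The genes described here are the serum- and glucocorticoid-regulated kinases (SGK1, SGK2, SGK3) and the N-myc downstream-regulated genes (NDRG1, NDRG2, NDRG3, NDRG4), taken by symbol from a table of RNA levels in LAN5 cells. Of the 7 symbols, 6 are rows among the 25084 genes of the table, and SGK2 was not analysed here. The set was chosen by measured values in 1 respect: SGK1 was picked because its RNA was among the largest rises after MYCN knockdown. NDRG1 was added as a substrate of SGK1 and a described target of MYCN repression, and the others by family name. The contrast of siMYCN with siCTR is therefore given for all members as a description, with no test.

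LAN5 is an established human neuroblastoma line with amplified MYCN. All cells were nucleofected (a form of electroporation) with an siRNA, kept in serum-containing growth medium and harvested after 72 h. The 3 groups of 3 libraries received a control siRNA (siCTR), 1 siRNA against MYCN (labelled siMYCN_2, here siMYCN) or 1 siRNA against HAND2 (labelled siHAND2_3, here siHAND2). With 1 siRNA per target, an effect of the target and an effect of that siRNA's sequence on other transcripts cannot be told apart. Nothing in the labels says that the 3 libraries of a group came from separate cultures, so p-values measure the spread between these libraries, which may be technical.

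SGK kinases belong to the AGC family, as AKT does. They are switched on by phosphorylation, by mTORC2 at the hydrophobic motif and by PDK1 (gene PDPK1) in the activation loop, and SGK1 activity depends strongly on how much of its short-lived RNA and protein the cell makes. SGK1 phosphorylates NDRG1, which then serves as a substrate of GSK3, so phosphorylated NDRG1 is widely used as a readout of SGK activity. NDRG proteins have an α/β-hydrolase fold without known catalytic activity. NDRG1 is linked to stress, hypoxia and differentiation and to peripheral nerve myelin, while NDRG2, NDRG3 and NDRG4 are prominent in brain and nerve tissue. RNA levels say nothing of phosphorylation, which was not measured.

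Levels are given as CPM, read counts scaled to the same total in each library. The size of 1 read, found from the commonest low CPM value in each library, implied a depth of 21.1 M to 32.7 M assigned reads (M for mega). Over 11201 genes averaging 5 CPM or more, libraries of 1 group correlated at 0.994 to 0.998 and libraries of different groups at 0.980 to 0.989 (Pearson r of log2(CPM + 1) across genes, which are not independent). Each target was lower in its own knockdown than in siCTR: siCTR, siMYCN and siHAND2 averaged 1842, 1289 and 914 CPM of MYCN and 501, 571 and 272 CPM of HAND2. MYCN was lowest in siHAND2, not in siMYCN. All 8 of the neuroblast markers examined (DBH, TH, CHGA, CHGB, STMN2, ELAVL4, NEFM, GAP43) were detected, with a summed level of 2002 to 2142 CPM in siCTR, 2554 to 2641 in siMYCN and 2135 to 2256 in siHAND2. That sum hides opposite movement in siHAND2, where 3 of the 8 were called higher and 2 lower (limma). In siMYCN 7 were called higher and none lower. Of all tested genes, 24.5% were called higher and 11.4% lower in siMYCN against siCTR. In siHAND2 against siCTR 18.1% were called higher and 11.8% lower. In the order siCTR, siMYCN and siHAND2, DBH averaged 263, 344 and 130 CPM and TH 2.95, 4.08 and 1.43 CPM. STMN2 averaged 176.5, 289 and 343 CPM and GAP43 35.5, 55.5 and 61.4 CPM. Schwann lineage markers summed to at most 3.34 CPM and leukocyte markers to at most 0.998 CPM in any library. Fibroblast markers summed to 217 to 232 CPM in siCTR, 266 to 274 in siMYCN and 563 to 643 in siHAND2, of which PDGFRA and PDGFRB made up most. Of the 6 fibroblast markers tested, 5 were called higher in siMYCN and 6 in siHAND2 (limma, median differences 0.76 and 1.97). Of all tested genes 24.5% and 18.1% were called higher. DCN stayed under 1 CPM in every siCTR library and passed the filter only through the knockdown libraries, where it was higher. The filter thus had a part in these counts and medians. The mean of COL1A2 was 1.66 CPM in siCTR, 4.42 CPM in siMYCN and 15.9 CPM in siHAND2, and in the same order LUM was at 9.15, 17.2 and 54.7 CPM, DCN at 0.431, 1.30 and 11.02 CPM and COL3A1 at 1.42, 4.19 and 3.84 CPM. COL1A1 was the only fibroblast marker in the table that did not pass the filter, and its means went the other way. They were 0.720, 0.507 and 0.363 CPM in siCTR, siMYCN and siHAND2, with single libraries between 0.279 and 0.936 CPM. The part of all these markers in the results below was not tested.

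SGK1 (chromosome 6, 134169246 to 134318112, minus strand, GRCh38), the founding member of the kinases and an immediate responder to glucocorticoid, serum and cell shrinkage, is the SGK gene with enough reads to describe. It measured 6.97, 7.08 and 8.73 CPM in siCTR replicates 1, 2 and 3. In siMYCN it measured 17.6, 19.7 and 21.5 CPM. In siHAND2 it measured 9.67, 10.1 and 10.2 CPM. The 3 groups did not overlap, with siCTR lowest, siHAND2 next and siMYCN highest. Group means were 7.59 ± 0.988, 19.6 ± 1.98 and 9.99 ± 0.294 CPM for siCTR, siMYCN and siHAND2 (SD, n = 3 libraries each), which rest on about 184 to 628 reads per library.

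**Figure D1:**
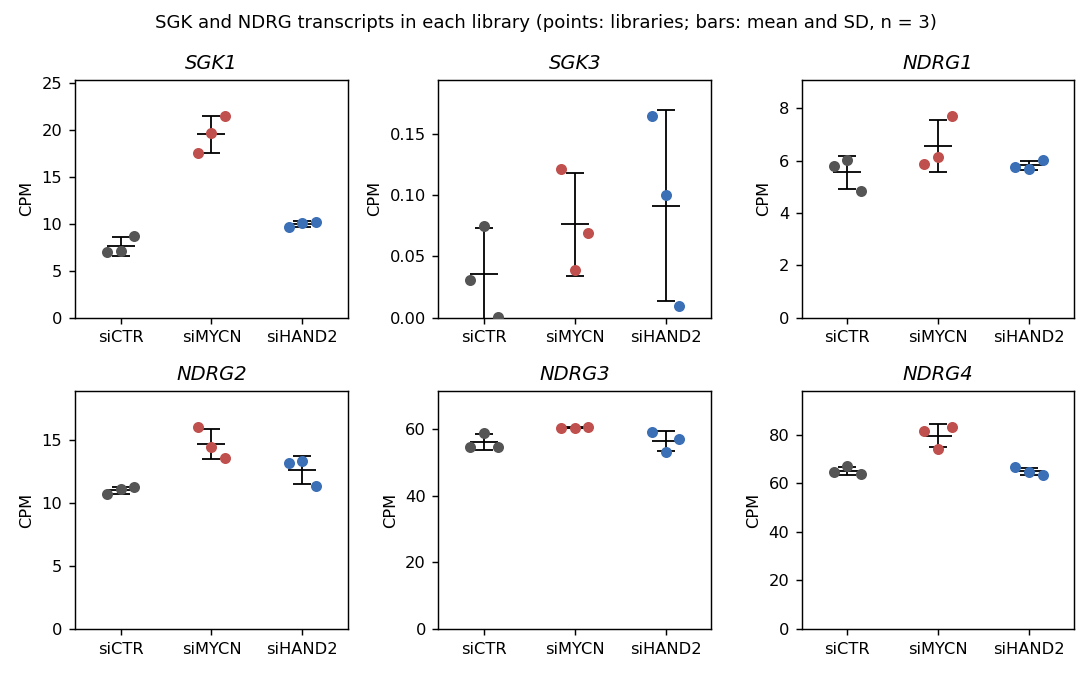
Level of 6 genes in CPM (vertical axes, each from 0) in the 9 libraries by siRNA group; points are libraries, bars the mean and SD of 3. SGK1 lies between 17.6 and 21.5 CPM in siMYCN, above the other groups, while NDRG1 overlaps in all 3 groups and SGK3 stays under 0.17 CPM.

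On the scale used for all tests, log2(CPM + 1), SGK1 was 1.26 (standard error 0.09) higher in siMYCN than in siCTR, a ratio of the CPM means of 2.58. Only 4 of the 14495 genes that passed the filter (at least 1 CPM in at least 3 libraries) rose more on that scale. The comparison that did not choose the gene was siHAND2 with siCTR, although it shares the control libraries with the one that did. There SGK1 was 0.36 higher (standard error 0.09, 95% interval 0.17 to 0.55, limma, Benjamini-Hochberg adjusted p = 0.00606), a ratio of the means of 1.32, with all 3 siHAND2 libraries above all 3 siCTR libraries. Over the 18 alternative settings this difference ran from 0.25 to 0.45 and stayed past the threshold of 0.05. SGK1 was 0.90 lower in siHAND2 than in siMYCN (log2 difference -0.90, standard error 0.09), given with no test because its level in siMYCN chose it. The siHAND2 group held the lowest MYCN RNA level, 914 CPM, and the middle SGK1 level. HAND2 RNA also differed between the groups, and MYCN protein was not measured. Whether the MYCN level had a part in the SGK1 level was not tested.

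SGK1 has several start sites, and the table sums all its transcripts, so the values cannot be assigned to 1 of them. RefSeq (GRCh38.p14) lists 3 start windows. The 250 bases before each start are shown because the gene's 3 starts differ in base composition and in the E-box letters that helix-loop-helix factors such as MYCN and HAND2 bind. Each is written 5′ to 3′ on the gene's strand, with capitals marking CANNTG (any E-box) or GGGCGG on either strand (a GC box).
SGK1 distal start, chr6:134318113-134318362: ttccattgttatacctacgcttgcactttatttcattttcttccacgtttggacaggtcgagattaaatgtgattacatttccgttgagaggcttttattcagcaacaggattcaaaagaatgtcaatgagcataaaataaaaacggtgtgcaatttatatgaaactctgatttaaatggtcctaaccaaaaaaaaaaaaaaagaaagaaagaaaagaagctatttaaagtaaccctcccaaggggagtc
SGK1 middle start, chr6:134177862-134178111: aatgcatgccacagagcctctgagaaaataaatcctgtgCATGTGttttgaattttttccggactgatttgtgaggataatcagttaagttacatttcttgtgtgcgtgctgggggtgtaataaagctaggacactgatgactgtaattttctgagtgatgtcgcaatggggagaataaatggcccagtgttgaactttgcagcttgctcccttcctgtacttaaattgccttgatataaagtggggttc
SGK1 proximal start, chr6:134174867-134175116: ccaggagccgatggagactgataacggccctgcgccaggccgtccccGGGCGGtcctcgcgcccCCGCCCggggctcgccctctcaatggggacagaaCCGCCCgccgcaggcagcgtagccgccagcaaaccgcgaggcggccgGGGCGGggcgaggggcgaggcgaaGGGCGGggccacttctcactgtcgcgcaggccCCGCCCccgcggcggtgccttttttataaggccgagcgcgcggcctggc

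The distal window is 33.6% G or C and held no match to either motif. The middle window, 41.6% G or C, held 1 E-box, whose first base lies 211 bases before the start. The proximal window, 76.0% G or C, held 6 GC boxes and no E-box. No window of the 3 held CACGTG (the E-box preferred by MYC proteins with MAX) or CATCTG (an E-box of the kind HAND2 binds with E proteins). Both strands were searched, and CANNTG includes CACGTG and CATCTG. RefSeq windows for 2 further members were searched in the same way, 5 for NDRG2 (some overlap) and 4 for NDRG4. CANNTG was in 2 of the 5 and 3 of the 4, GGGCGG in 3 of the 5 and 3 of the 4, and the other 2 motifs in none. Of all 35116 windows of this length, 61.8% held CANNTG, 42.6% GGGCGG, 12.2% CATCTG and 6.34% CACGTG. A match is a description of letters and not a binding site, and a missing match says only that those letters are not in the window.

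SGK3 (chromosome 8, 66712734 to 66862022) encodes the SGK kinase with a PX domain, which binds phosphoinositide on endosomes. The siCTR libraries list it at 0.0307, 0.075 and 0.000154 CPM. The siMYCN libraries list 0.121, 0.0384 and 0.0686 CPM, and the siHAND2 libraries 0.165, 0.1002 and 0.00911 CPM. These values amount to 5 reads or fewer per library, some of them fractions of a read, and the groups overlap. The gene did not pass the filter and no difference was detectable at this depth. A readthrough gene, C8orf44-SGK3, covers nearly all of SGK3 on the same strand and is listed at 0.000102 to 0.207 CPM. How reads that fit both genes were counted is not given in the sources used here, so the SGK3 level is uncertain and may be too low.

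NDRG1 (chromosome 8, 133237171 to 133302022), the SGK1 substrate, known as a gene repressed by MYCN, measured 5.81, 6.03 and 4.84 CPM in siCTR. In siMYCN it measured 5.88, 6.14 and 7.71 CPM, and in siHAND2 5.76, 5.70 and 6.02 CPM. Only siMYCN replicate 3 lay clearly above the siCTR range, and the groups overlapped. By group NDRG1 averaged 5.56 ± 0.632, 6.57 ± 0.991 and 5.82 ± 0.174 CPM (± SD, n = 3 libraries per group), on about 102 to 225 reads per library. The log2 difference of siMYCN from siCTR was 0.20 (standard error 0.10, given with no test), and 0.10 without siMYCN replicate 3. In siHAND2 it was 0.06 (95% interval -0.16 to 0.28, limma, adjusted p = 0.693), and siHAND2 differed from siMYCN by -0.14 (95% interval -0.36 to 0.08, adjusted p = 0.334). The sign of the siHAND2 difference turned after quantile normalization (-0.011) and without siCTR replicate 3 (-0.020).

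NDRG2 (chromosome 14, 21016763 to 21070872) is a differentiation-linked member known for low levels in many tumours. In siCTR it measured 10.7, 11.2 and 11.2 CPM. The siMYCN libraries gave 16.03, 14.5 and 13.6 CPM, and the siHAND2 libraries 13.2, 13.3 and 11.4 CPM. All siMYCN and siHAND2 libraries lay above the siCTR libraries, siHAND2 replicate 3 only just. Means were 11.04 ± 0.276, 14.7 ± 1.23 and 12.6 ± 1.10 CPM (± SD of 3 libraries), and the log2 difference of siMYCN from siCTR was 0.38 (standard error 0.08). In siHAND2 it was 0.18 (95% interval 0.01 to 0.34, limma, adjusted p = 0.104), which did not pass, and 0.25 (adjusted p = 0.0253) without siHAND2 replicate 3. Against siMYCN, siHAND2 was at -0.20 (adjusted p = 0.068), and at -0.25 (adjusted p = 0.0483) without siMYCN replicate 3. The far end of NDRG2 overlaps ARHGEF40 on the other strand, whose mean was 57.2 CPM with the control siRNA, 80.3 CPM with siMYCN and 90.3 CPM with siHAND2. The sources used here do not say whether reads were counted by strand, so reads of the pair cannot be told apart where they overlap.

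NDRG3 (chromosome 20, 36651766 to 36746090), whose protein has been described as an oxygen-regulated binder of lactate, had group means between 56.1 and 60.4 CPM. The siCTR libraries gave 54.7, 59.0 and 54.7 CPM. The siMYCN libraries gave 60.4, 60.3 and 60.5 CPM, and the siHAND2 libraries 59.1, 53.2 and 57.1 CPM. The siMYCN libraries lay just above the siCTR libraries and close together, while siHAND2 and siCTR overlapped. Means were 56.1 ± 2.47, 60.4 ± 0.121 and 56.5 ± 3.03 CPM (± SD of 3 libraries). The log2 difference was 0.11 in siMYCN (standard error 0.05). It was 0.009 in siHAND2 (95% interval -0.10 to 0.12, limma, adjusted p = 0.916), with a sign that turned under both other scalings (-0.028 and -0.020) and when siCTR replicate 1 or 3 or siHAND2 replicate 1 or 3 was dropped (-0.025 to -2.44e-05). Against siMYCN the siHAND2 value was -0.10 (adjusted p = 0.172).

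NDRG4 (chromosome 16, 58462846 to 58513628), a member expressed mainly in brain and heart, measured 64.5, 66.9 and 64.0 CPM in siCTR. In siMYCN it measured 81.7, 74.2 and 83.1 CPM, all above the other groups. In siHAND2 it measured 66.5, 64.7 and 63.5 CPM, within or next to the siCTR range. Means were 65.1 ± 1.59, 79.7 ± 4.74 and 64.9 ± 1.51 CPM (± SD of 3 libraries). The log2 difference of siMYCN from siCTR was 0.29 (standard error 0.05). For siHAND2 it was -0.004 (95% interval -0.11 to 0.10, limma, adjusted p = 0.959), and the sign turned when siCTR replicate 2 (0.015) or siHAND2 replicate 3 (0.011) was dropped. Between the knockdowns NDRG4 was -0.29 in siHAND2 against siMYCN (95% interval -0.39 to -0.18, adjusted p = 0.000311), with all 3 siHAND2 libraries below all 3 siMYCN libraries, and this held in all 18 alternatives.

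**Figure D2:**
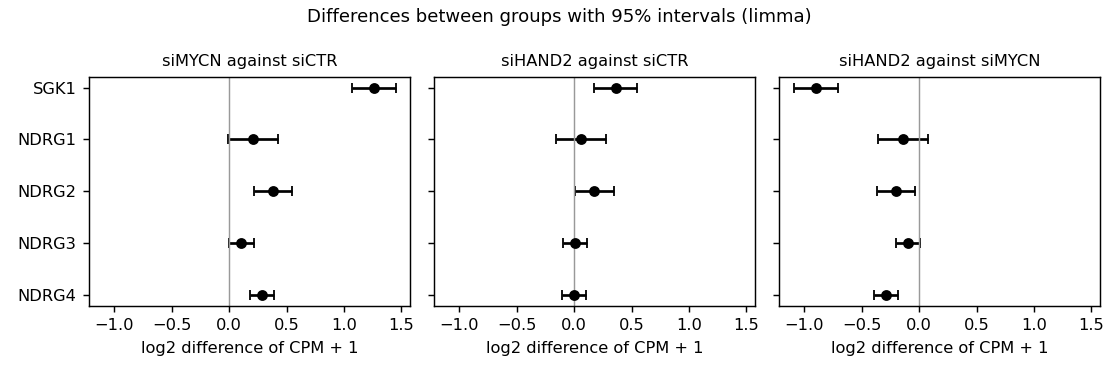
Log2 difference of CPM + 1 (horizontal axes) for the 5 members that passed the filter, in 3 comparisons; points are limma estimates and bars 95% intervals. SGK1 is at 1.26, 0.36 and -0.90, and NDRG4 at 0.29, -0.004 and -0.29. The bars of siMYCN against siCTR, and of SGK1 between the knockdowns, are a description and no test. The choice of genes used those values.

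The 5 members that passed the filter exceeded 1 CPM in every library. In siHAND2 against siCTR 1 of the 5 (SGK1) was called higher and none lower at an adjusted p of 0.05 (limma), where 29.9% of all tested genes were called, 18.1% higher and 11.8% lower. All siHAND2 libraries lay above all siCTR libraries for 2 of the 5 (SGK1 and NDRG2), as they did for 25.8% of all tested genes (16.6% lay below, 42.4% in all did not overlap). NDRG2 was the other member with an unadjusted interval that left out 0. Between the knockdowns, 1 of the 4 NDRG genes (NDRG4) was called, lower in siHAND2, where 26.9% of all tested genes were called, 15.5% lower and 11.4% higher. All siHAND2 libraries lay below all siMYCN libraries for 3 of the 4 NDRG genes, the exception being NDRG1, and for 21.6% of all tested genes (17.1% lay above, 38.7% in all did not overlap). In siMYCN against siCTR, 4 of the 5 had all siMYCN libraries above all siCTR libraries, as did 33.4% of all tested genes (16.1% lay below, 49.5% in all did not overlap). The choice of genes used this contrast and nothing is read from the count. The median difference of the 5 members was 0.29 in siMYCN, 0.06 in siHAND2 and -0.20 between the knockdowns, where the medians of all tested genes were 0.06, 0.04 and -0.006. The member medians include SGK1, whose siMYCN level was used to choose it. The share of higher genes among all called depends on the scaling: in siMYCN it was 68.3% with the CPM values unchanged, 51.7% with median-ratio rescaling and 49.3% with quantile normalization. The same shares were 60.6%, 48.3% and 47.8% in siHAND2 and 42.4%, 50.4% and 51.9% between the knockdowns.

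To compare genes with each other, CPM was divided by the length of each gene's canonical GENCODE transcript. In siCTR this put NDRG4 at 20.3 ± 0.495 and NDRG3 at 18.9 ± 0.831 CPM per kb, NDRG2 at 3.71 ± 0.0926, SGK1 at 2.34 ± 0.304, NDRG1 at 1.84 ± 0.209 and SGK3 at 0.00859 ± 0.00916 (SD, n = 3 libraries). NDRG3 and NDRG4 were thus the abundant members in these neuroblastoma cells. Their order depends on the length used: divided by the length of all annotated exons, NDRG3 stood at 17.2 and NDRG4 at 6.75 CPM per kb, while NDRG2, SGK1 and NDRG1 kept the order 1.46, 0.762 and 0.463. In siMYCN SGK1 reached 6.03 ± 0.611 CPM per kb of canonical transcript and passed NDRG2 (4.94 ± 0.412), which it did not in siCTR or siHAND2 (3.08 ± 0.0905 against 4.25 ± 0.371). By all-exon length SGK1 and NDRG2 were alike in siMYCN, 1.97 ± 0.199 against 1.95 ± 0.162, so that change of order rests on the length chosen.

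**Figure D3:**
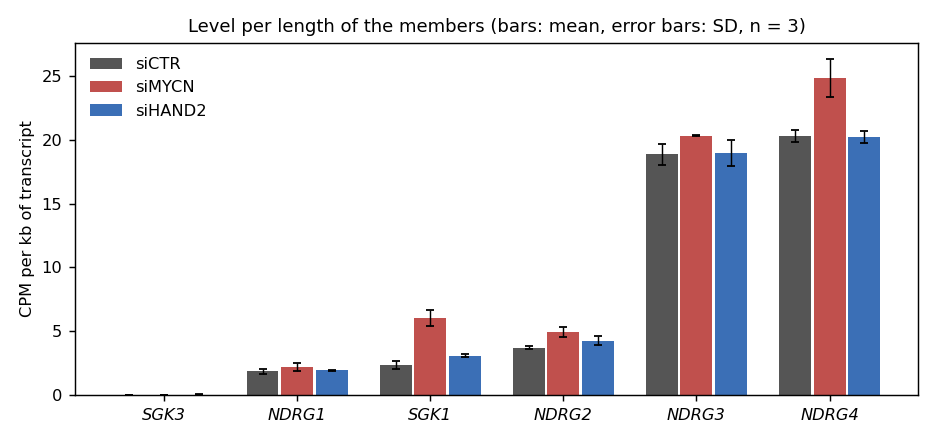
Level in CPM per kb of canonical transcript (vertical axis, from 0) for the 6 genes in each siRNA group; bars are means and error bars SDs of 3 libraries. NDRG3 and NDRG4 stand near 19 to 25 CPM per kb, the other members at or under 6.03.

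The 4 NDRG genes together reached 138 ± 4.56 CPM with the control siRNA, 161 ± 5.39 CPM with siMYCN and 139.9 ± 4.17 CPM with siHAND2 (SD, n = 3 libraries). NDRG1 held 4.03% ± 0.380 of that sum in siCTR, 4.07% ± 0.555 in siMYCN and 4.17% ± 0.192 in siHAND2, so its part of the family differed by less than the spread between libraries. NDRG4 held 47.3% ± 0.412, 49.3% ± 1.32 and 46.4% ± 0.725. Over the 9 libraries, which share their 3 groups, SGK1 had a Pearson r of 0.878 with NDRG4 (Spearman 0.583), 0.823 with NDRG2 (0.883), 0.654 with NDRG3 (0.70) and 0.605 with NDRG1 (0.567), given as a description.

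Genes whose levels followed SGK1 most closely were sought among 980 genes averaging 5 CPM or more, with group means at least 0.5 apart on the log2 scale. The 5 highest Pearson r over the 9 libraries belonged to the noncoding RNA gene LINC02073 (0.990), ANK2 (0.989, a large neuronal membrane adaptor), PPP2R5B (0.983, a regulatory subunit of the phosphatase PP2A), KIF5A (0.982, a neuronal kinesin) and CNTN5 (0.982, a neural adhesion molecule). All had their highest mean in siMYCN and an intermediate one in siHAND2. That order follows from choosing them by likeness to SGK1 over the same libraries, and nothing is read from it. KIF5A, for example, went from 52.5 ± 1.56 CPM in siCTR to 85.4 ± 1.74 in siMYCN and 63.4 ± 0.992 in siHAND2, and PPP2R5B from 6.90 ± 0.201 to 12.6 ± 0.589 and 8.41 ± 0.320 (SD, n = 3 libraries). For NDRG1 the highest r among 981 genes ran from 0.810 (OTUD7A) through LZTS3 (0.774), REEP1 (0.767) and ZNF641 (0.742) to TTC9 (0.737). The group means of NDRG1 itself lie less than 0.5 apart, so genes as flat as NDRG1 were not compared. Nothing is read from these lower values.

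**Figure D4:**
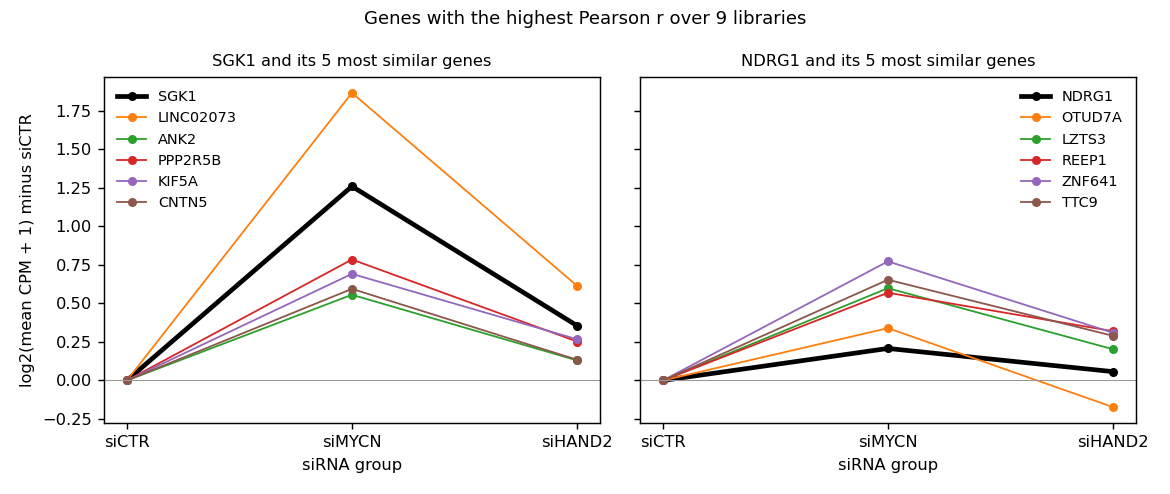
Log2(mean CPM + 1) minus its siCTR value (vertical axis) by siRNA group for SGK1 (left, thick line), NDRG1 (right, thick line) and the 5 genes most like each; lines join group means and imply no order. The SGK1 set, chosen for its likeness to SGK1, peaks in siMYCN, with LINC02073 above SGK1 and the other 4 below it.

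The pathway around the members was described with 10 lists of genes. For reference, 35.9% of all tested genes were called in siMYCN against siCTR, 24.5% higher and 11.4% lower. In siHAND2 against siCTR 29.9% were called, 18.1% higher and 11.8% lower. On the input side, 9 genes of mTORC2 and PDK1 were tested. In siMYCN 1 rose and 2 fell, in siHAND2 1 rose and 1 fell, and list medians were 0.03 and 0.02. PDPK1, the gene of the kinase PDK1, went from 48.1 CPM in siCTR to 61.1 in siMYCN (log2 difference 0.34, standard error 0.06, limma, adjusted p = 0.000273) and to 54.5 CPM with siHAND2 (0.17, adjusted p = 0.0314). The siHAND2 call of PDPK1 was lost after both other scalings (0.14 and 0.15) and without the intensity trend, and without siCTR replicate 2 (0.16) or 3 (0.16) or siHAND2 replicate 1 (0.14) or 2 (0.15). DEPTOR, an inhibitor within the mTOR complexes, fell from 5.45 to 3.21 CPM in siMYCN (-0.62, adjusted p = 0.00014) and stood at 5.90 in siHAND2. RICTOR and MAPKAP1, the subunits that define mTORC2, did not pass in either knockdown (RICTOR 0.03 and 0.01, MAPKAP1 0.08 and 0.02). After either other scaling 4 of the 9 fell and 1 rose in siMYCN, and 2 fell and none rose in siHAND2, where the median turned to -0.017 and -0.0086.

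Among 14 genes of phosphoinositide 3-kinases and the phosphatases that remove their products, 5 rose and 2 fell in siMYCN (median 0.04) and 6 rose and none fell in siHAND2 (median 0.15). The median in siMYCN turned to -0.009 with median-ratio rescaling and -0.014 with quantile normalization, and 1 gene fell in siHAND2 after either. In siHAND2 the phosphatase gene INPP4B, whose product yields the lipid that recruits SGK3, went from 8.83 to 18.6 CPM (log2 difference 1.00, standard error 0.09, limma, adjusted p = 2.21e-07). In siMYCN INPP4B averaged 7.31 CPM, and the difference between the knockdowns was 1.25 (adjusted p = 1.17e-08). PIK3R1, a regulatory subunit, rose in both, by 0.36 in siMYCN (adjusted p = 3.43e-05) and 0.59 in siHAND2 (adjusted p = 1.43e-07).

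Of 8 related AGC kinases, 4 rose and none fell in siMYCN (median 0.12), and 0 rose and 1 fell in siHAND2 (median -0.007). AKT1 rose from 159.5 to 199 CPM in siMYCN (log2 difference 0.31, limma, adjusted p = 0.000171) and was at 170.3 CPM in siHAND2 (0.09, adjusted p = 0.191). RPS6KA2, an RSK kinase, rose by 0.31 in siMYCN (adjusted p = 4.61e-05) and fell by 0.40 in siHAND2 (adjusted p = 2.99e-06). The number that rose in siMYCN was 2 after either other scaling.

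Of 13 tested genes for SGK substrates and SGK1 turnover, 4 rose in siMYCN (median 0.11), 3 rose in siHAND2 (median 0.045) and none fell. After either other scaling 1 fell in siMYCN. GSK3B, the kinase that follows SGK1 on NDRG1, rose from 112.3 to 135.6 CPM in siMYCN (log2 difference 0.27, limma, adjusted p = 0.000544) and to 134 in siHAND2 (0.26, adjusted p = 0.000996). FOXO3, a transcription factor that SGK and AKT hold out of the nucleus, rose from 302 to 367 CPM in siMYCN (0.28, adjusted p = 8.75e-05) and was at 307 CPM in siHAND2 (0.02, adjusted p = 0.722). The knockdowns differed in FOXO3 by -0.26 (adjusted p = 0.000218). NEDD4L, the ubiquitin ligase that SGK1 restrains at the epithelial sodium channel, was at -0.15 in siMYCN (adjusted p = 0.0724). It passed with either other scaling (-0.20 in both), in the fit of the 2 groups alone (adjusted p = 0.0399) and without siHAND2 replicate 3 (-0.15, adjusted p = 0.0427). MAP3K3 rose by 0.30 in siMYCN (adjusted p = 8.08e-05).

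Of 6 tested genes of SGK-regulated transport, 4 rose and 1 fell in siMYCN (median 0.22) and 2 fell in siHAND2 (median 0.011). After the other scalings 2 rose and 1 fell in siMYCN, and the siHAND2 median turned to -0.025 and -0.036. ATP1B1, a subunit of the sodium pump, rose from 92.95 to 134.5 CPM in siMYCN (log2 difference 0.53, limma, adjusted p = 7.35e-06) and was at 80.5 CPM in siHAND2 (-0.20, adjusted p = 0.0211), a call lost without the intensity trend and without siCTR replicate 1 (-0.17) or 2 (-0.16) or siHAND2 replicate 2 (-0.15). Between the knockdowns ATP1B1 differed by -0.73 (adjusted p = 1.37e-07), lower in siHAND2.

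SGK1 is a classical glucocorticoid-induced gene, so the glucocorticoid receptor and other genes it induces were examined, 8 of which were tested. In siMYCN, where SGK1 was highest, 3 rose and 4 fell (median -0.16), and after quantile normalization 1 rose and 4 fell. TSC22D3, which encodes GILZ, rose from 31.0 to 39.7 CPM (log2 difference 0.35, limma, adjusted p = 0.000131). The other genes that rose were DUSP1, from 11.8 to 14.3 CPM, and ERRFI1, from 6.03 to 7.71 CPM. KLF9 fell from 6.06 to 3.38 CPM (-0.69, adjusted p = 5.44e-05) and DDIT4 from 34.8 to 21.9 CPM (-0.65, adjusted p = 3.73e-07). FKBP5, an inhibitor of the receptor that the receptor itself induces, was at -0.17 (adjusted p = 0.00876), a call lost without siCTR replicate 1 (-0.14). PER1 was at -0.31 (adjusted p = 0.0165), lost without siCTR replicate 2 (-0.27) or siMYCN replicate 2 (-0.20). The receptor gene NR3C1 averaged 5.16 CPM in siCTR, 4.52 in siMYCN (-0.16, adjusted p = 0.192) and 10.5 in siHAND2 (0.90, adjusted p = 1.65e-06). In siHAND2 3 of the 8 rose and 1 fell (median 0.09), and KLF9 and FKBP5 were not among them. PER1 was the gene that fell (-0.46, limma, adjusted p = 0.00161), in all 18 alternatives. ERRFI1 rose (0.35, adjusted p = 0.00903), a call lost without siCTR replicate 2 (0.30). TSC22D3 was at 0.15 in siHAND2 (adjusted p = 0.0424), lost in 12 of 18 alternatives. Whether glucocorticoid signalling had a part in the SGK1 level was not tested.

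Cell shrinkage is another inducer of SGK1. Of 5 tested osmotic stress genes, 3 fell and none rose in siMYCN (median -0.11), and 3 fell and none rose in siHAND2 (median -0.16). SLC6A6, the taurine transporter, went from 60.2 to 45.5 CPM in siMYCN (log2 difference -0.40, limma, adjusted p = 5.27e-05) and 52.9 CPM in siHAND2 (-0.18, adjusted p = 0.0213). The siHAND2 call was lost without the intensity trend and without siCTR replicate 1 (-0.15) or 2 (-0.18) or siHAND2 replicate 2 (-0.14). HSPA4L, a chaperone, went from 97.7 to 78.6 CPM in siMYCN (-0.31, adjusted p = 0.000415) and 86.1 CPM in siHAND2 (-0.18, adjusted p = 0.02002). Its siHAND2 call was lost without the intensity trend and without siCTR replicate 1 (-0.17) or 2 (-0.19) or siHAND2 replicate 1 (-0.13) or 2 (-0.17), so leaving out siCTR replicate 1, siCTR replicate 2 or siHAND2 replicate 2 ended both calls. AKR1B1, aldose reductase, passed narrowly in siMYCN (-0.11, adjusted p = 0.0494), a call lost in 10 of 18 alternatives, and fell in siHAND2 (-0.16, adjusted p = 0.00593) in all 18.

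FOXO factors and their targets lie downstream of SGK and AKT. Of 10 tested, 5 rose and 2 fell in siMYCN (median 0.12) and 4 rose and 1 fell in siHAND2 (median 0.09). After either other scaling 4 rose and 2 fell in siMYCN, and 3 rose and 1 fell in siHAND2. Lower levels in siMYCN were seen for SESN1 (33.8 to 28.8 CPM) and SESN3 (80.5 to 72.0 CPM). GADD45A fell in siHAND2 (log2 difference -0.23, limma, adjusted p = 0.0127), a call lost without siCTR replicate 2 (-0.16). IRS2, an insulin receptor adaptor, rose from 104.5 to 142 CPM in siMYCN (log2 difference 0.44, limma, adjusted p = 1.15e-05), and the receptor gene INSR rose from 59.96 to 73.96 CPM (0.30, adjusted p = 0.000101). CCNG2, an unconventional cyclin that slows the cell cycle, rose from 31.8 to 41.4 CPM in siMYCN (0.37, adjusted p = 0.000164) and to 44.8 CPM in siHAND2 (0.48, adjusted p = 1.48e-05).

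Low oxygen is a strong inducer of NDRG1, and 13 genes of oxygen sensing and response were tested. In siMYCN 2 rose and 5 fell (median -0.09) and in siHAND2 3 rose and 9 fell (median -0.37). With median-ratio rescaling 1 rose and 6 fell in siMYCN, and with quantile normalization 2 rose and 6 fell. In siHAND2 10 fell after quantile normalization. BNIP3, a mitophagy receptor, fell from 198 to 121.7 CPM in siMYCN (log2 difference -0.70, limma, adjusted p = 2.18e-07) and to 130.7 CPM in siHAND2 (-0.60, adjusted p = 7.33e-07). SLC2A1, the glucose transporter GLUT1, fell by 0.53 in siMYCN (adjusted p = 1.41e-06) and 0.73 in siHAND2 (adjusted p = 2.46e-08). HIF1A fell from 503 to 390 CPM in siHAND2 (-0.37, adjusted p = 1.42e-06), while EPAS1, which encodes HIF2α, rose from 1.60 to 9.10 CPM (1.96, adjusted p = 2.13e-09). In siMYCN HIF1A was called higher, at 553 CPM (0.13, limma, adjusted p = 0.0103). That call was lost with median-ratio rescaling (0.08) and without siMYCN replicate 3 (0.12). NDRG1 was at 0.20 in siMYCN (standard error 0.10, given with no test) and at 0.06 in siHAND2 (95% interval -0.16 to 0.28).

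Of 7 tested genes described as repressed by MYC or MYCN, or encoding the MIZ1 cofactor, 5 rose in siMYCN (median 0.46), 5 rose in siHAND2 (median 0.32) and none fell. Quantile normalization left 4 in siHAND2. CLU, which encodes clusterin, rose from 11.97 to 22.1 CPM in siMYCN (log2 difference 0.83, limma, adjusted p = 7.72e-07) and to 15.2 CPM in siHAND2 (0.32, adjusted p = 0.00546). NGFR, the low-affinity neurotrophin receptor, rose from 1.68 to 4.86 and 3.97 CPM (1.13 and 0.87, adjusted p = 9.17e-06 and 0.000125). CLU was lower in siHAND2 than in siMYCN (-0.52, adjusted p = 9.16e-05). ZBTB17, the MIZ1 gene, did not pass in either knockdown (0.13 and 0.09).

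**Figure D5:**
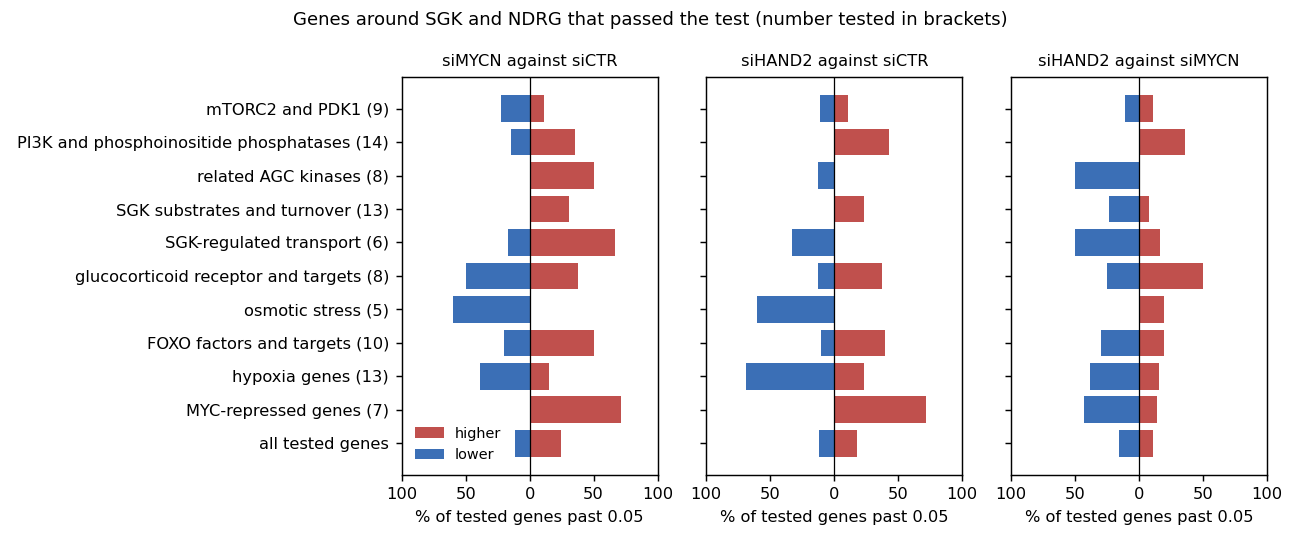
Share of tested genes past an adjusted p of 0.05 (horizontal axis, percent; red higher, blue lower in the first-named group) for 10 gene lists, number tested in brackets, and for all 14495 tested genes in the bottom row. In the list of MYC-repressed genes, which includes the gene of the MIZ1 cofactor, 5 of 7 are higher in each knockdown than in siCTR. Of the hypoxia genes 9 of 13 are lower in siHAND2 than in siCTR.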

How the data were processed

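RNA of 9 LAN5 libraries (3 per siRNA) was sequenced. The authors deposited 1 table of CPM values, with 0.0001 added to each value. Reads were aligned with STAR 2.5.1, and Partek is also named, per the submitters' processing notes. Those notes name hg19 and GRCh37, but 91.4% of gene starts in the table lay within 5000 bp of the GRCh38.p14 RefSeq start and 5.62% of the GRCh37 ones, so positions are given as GRCh38. The annotation, counting rule, use of strand and filters are not given in the sources used here. Low values were whole multiples of 1 read (within 0.02 of a step, up to 20 steps) in 79.8% to 81.3% of cases, too few for a count model.

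Genes with at least 1 CPM in 3 libraries (14495) were tested on log2(CPM + 1), which understates changes of low genes, with limma 3.58.1 in R 4.3.3 (1 mean per group, all 9 libraries, intensity trend, two-sided, Benjamini-Hochberg over all genes, threshold 0.05). The code was tested on simulated data. Columns were matched to samples by name. Counting error at 1 CPM is 17.5% to 21.8% (coefficient of variation), depending on the library.

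The 7 members and all lists were chosen with earlier results of these data known. Named besides them are, per list and comparison, up to 3 genes with the smallest adjusted p, 16 genes fixed by role (such as NR3C1 and HIF1A), and for SGK1 and NDRG1 the 5 most similar genes; some are given only within counts or are not reported here. Transcript lengths are from GENCODE v44 (lifted to GRCh37). Its gene starts were the GRCh37 ones used to check the build, and no position printed here comes from it. Promoter sequences are from RefSeq; sequences of genes on chromosome 8 are not shown, and NDRG3 had no match. Alternatives were pseudocounts of 0.1 and 5, no filter or 5 CPM, median-ratio and quantile scaling, the 2 groups alone, no trend, replicate number as a block, and each library left out.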

Additional observations from a re-analysis of the deposited data

How the results depend on the processing

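Each value was recomputed under 18 alternatives. The counts of genes called stayed within 1.5 times of their values: 4017 to 5895 in siMYCN against siCTR (5209), 3079 to 5089 in siHAND2 against siCTR (4339) and 2923 to 4689 between the knockdowns (3892). The calls of SGK1 in siHAND2 against siCTR and of NDRG4 between the knockdowns held in all 18. A pseudocount of 5 moved SGK1 to 0.96 in siMYCN and to -0.71 in siHAND2 against siMYCN, as a larger pseudocount shrinks low genes. Quantile normalization moved NDRG4 in siMYCN to 0.22, NDRG1 in siHAND2 to -0.011 and NDRG3 in siHAND2 to -0.020, and median-ratio rescaling moved NDRG3 in siHAND2 to -0.028; the last 3 are reversals of differences that were not called. In fits that left out 1 library, siHAND2 against siCTR ran from -0.020 to 0.11 for NDRG1, 0.14 to 0.25 for NDRG2, -0.025 to 0.051 for NDRG3 and -0.022 to 0.015 for NDRG4, and NDRG2 between the knockdowns from -0.25 to -0.13. The cause of these shifts was not tested. With replicate number as a block, NDRG2 between the knockdowns passed (-0.20, adjusted p = 0.0448), the counts of genes called were 5895, 5089 and 4689, and no other member's call changed. The replicate numbers share no stated batch, and same-numbered libraries correlated at -0.04 to 0.30 in their deviations from group means (6 of 9 pairs over 0.1; 15 of 18 comparisons were highest with the own number). That is a hint from the data of a shared effect, but not every pair was over 0.1 and no label ties the libraries, so they were not treated as paired. Of 91 calls of pathway genes covered by the naming rule, 71 held and all 91 kept their sign in every alternative. SGK3 did not pass the filter and has no alternative values. At its depth of 5 reads or fewer, differences could not be seen.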
